A study of Homo sapiens and Mus musculus with 16 samples.

Results

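The 10 genes described here encode the proteins that make microRNAs and use them to silence mRNAs. They are the Argonautes AGO1, AGO2, AGO3 and AGO4, the GW182 proteins TNRC6A, TNRC6B and TNRC6C, the cytoplasmic nuclease DICER1 and the nuclear pair DROSHA and DGCR8. They were chosen by name, by their listed human symbols and by the same symbols in mouse ignoring case, and all 10 were found among the 22286 genes of the human table and the 15881 genes of the mouse table. The mRNAs of these genes were counted, not the proteins and not the microRNAs.

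P-body-seq sorts fluorescent particles of the P-body protein LSM14A out of a cell lysate, and the RNA of these particles is sequenced along with that of the cytoplasm they were taken from. The 16 libraries covered 4 cell types with 2 P-body and 2 cytoplasm libraries each. HEK293T, a human embryonic kidney line, and KH2, a line of mouse embryonic stem cells grown in serum with LIF (mESC), carried a GFP-LSM14A fusion delivered by lentivirus and driven by an EF1a promoter. Liver bud progenitors and neurons at day 20 of differentiation were derived from UCLA4 human embryonic stem cells, which carried GFP-LSM14A at the AAVS1 locus. All groups, cytoplasm included, therefore came from cells that express the tagged protein, and the cytoplasm was the suspension before sorting, so it still held P-bodies. HEK293T and mESC libraries were labelled as total RNA (Snap seq, with random primers) and the others as polyA RNA (V4 Ultra kit with Nextera XT), so that RNA type and cell type cannot be told apart when either is set against the differentiated cells. The study describes the replicates as biologically independent, the labels do not say how they were separated, and p-values measure only the spread between these libraries.

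A microRNA starts as a hairpin in a primary transcript. DROSHA cuts the hairpin out in the nucleus together with its RNA-binding partner DGCR8, the pair being called the Microprocessor, and DICER1 trims it in the cytoplasm. The mature strand is loaded into an Argonaute protein and guides it by its seed, bases 2 to 8, to matching sites in the 3′ UTRs of mRNAs. TNRC6 proteins bind Argonaute and recruit deadenylases, and both are known residents of P-bodies.

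The tables hold primary transcripts of some microRNAs, named as host genes. The mature sequences below lie inside host genes that were read in these libraries and are shown because the members' own 3′ UTRs were searched for their seeds (RefSeq, GRCh38.p14; seed in capitals). The let-7 seed was shared by let-7a-5p in MIR100HG, let-7c-5p in MIR99AHG and miR-4458 in MIR4458HG.
let-7a-5p: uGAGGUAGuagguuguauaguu
let-7c-5p: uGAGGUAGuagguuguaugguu
miR-4458: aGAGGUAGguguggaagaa
A seed of their own was shared by miR-100-5p in MIR100HG and miR-99a-5p in MIR99AHG, and both host genes also held a copy of miR-125b-5p.
miR-100-5p: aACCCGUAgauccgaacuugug
miR-99a-5p: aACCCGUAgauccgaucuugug
miR-125b-5p: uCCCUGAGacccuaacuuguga
The remaining host genes searched were MIR9-3HG, with miR-9-5p, and MIR17HG, where miR-17-5p and miR-20a-5p share a seed.
miR-9-5p: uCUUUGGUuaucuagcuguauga
miR-17-5p: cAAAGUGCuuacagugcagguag
miR-20a-5p: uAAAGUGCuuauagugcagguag

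In the 3′ UTRs of the members (MANE Select transcripts, GENCODE 44, transcript strand only), the 7-base match ACCAAAG to the miR-9 seed stood once each in 6 of 10 members, AGO1, AGO3, TNRC6A, TNRC6B, DICER1 and DGCR8. Each of these sites is printed with its match in capitals and the bases around it.
AGO1: ggctcagtgataacACCAAAGa
AGO3: atagtctttttagaACCAAAGa
TNRC6A: tggtttttccaaaaACCAAAGg
TNRC6B: tgcacacaccagtgACCAAAGt
DICER1: tgcatatttcacctACCAAAGc
DGCR8: agatgcgcctgtgaACCAAAGc
A match of this kind was present in 13.7% of the 17152 genes of the table with an annotated 3′ UTR and in 33.5% of those whose 3′ UTR spans at least 3000 bases. The 3′ UTRs of TNRC6A (2411 bases) and DGCR8 (1764) are shorter than that, and those of AGO1, AGO3 and TNRC6B span 10925 to 16755. The members were thus not compared with genes of like length. The let-7 match CTACCTC was found in 3 members, once in AGO1 and AGO3 and at 2 places in AGO2, against 10.4% of the 17152 genes and 25.9% of those with long 3′ UTRs.
AGO1: tctccttattcctcCTACCTCc
AGO3: atacctgtcctcacCTACCTCa
The miR-17 match GCACTTT occurred at 20 places in 7 members, of which 8 were in AGO3 (22.9% of genes and 55.2% of those with long 3′ UTRs held one). The miR-125b match CTCAGGG stood in AGO1, AGO2 and DICER1 (15.6% of genes and 32.4% of those with long 3′ UTRs held one). The miR-100 match TACGGGT stood in AGO2 alone (1.1% of genes and 3.3% of those with long 3′ UTRs). These matches are letters in an annotated transcript, and no binding was measured. The let-7 match ends and the miR-125b match begins with CTC, so the 2 motifs could overlap.

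Library totals ran from 6368953 to 17972284 counts, and 3 counts, taken as the floor of detection, stood for 0.167 to 0.471 CPM, the counts scaled to a library total of 1000000. Intervals and floors of this kind cover counting error only. Levels below are normalised CPM, that is, CPM with library totals scaled by the TMM method within a cell type, and changes are log2 ratios of P-bodies to cytoplasm with their standard error (SE) from edgeR's quasi-likelihood test, called at a Benjamini-Hochberg adjusted p under 0.05 over all genes. With library size alone in place of TMM, the median change of all genes shifted by -0.13 for HEK293T, by -0.19 for liver bud progenitors, by 0.16 for neurons and by -0.40 for mESC, and changes are to be read relative to that shift. In mESC several members then changed sign, as stated with each. All 7 neuron markers were at 1 CPM or more in neurons, 7 of 8 liver bud markers in liver bud progenitors, where the defining marker ALB was at 0 counts in cytoplasm, and all 7 mouse stem cell markers in mESC. All 7 neuron markers also reached 1 CPM in liver bud progenitors, summing to 162 to 170 CPM in cytoplasm against 9580 to 10100 in neuron cytoplasm. Liver bud markers summed to 428 to 442 CPM in liver bud progenitor cytoplasm against 57.2 to 61.2 in neuron cytoplasm. In P-bodies they summed to 208 to 218 CPM in liver bud progenitors, 265 to 270 in neurons and 202 in HEK293T. The 5 pluripotency markers, POU5F1, NANOG and LIN28A among them, still summed to 1380 to 1410 CPM in liver bud progenitor cytoplasm and to 15.3 to 18.9 CPM in neuron cytoplasm.

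Whether the mRNAs of the silencing machinery are themselves held in P-bodies was read from the 4 fraction comparisons. In HEK293T, 7 of 10 members were P-body enriched and 3 were depleted, where 19.3% of all 21903 genes tested were called enriched and 22.8% depleted. Liver bud progenitors had 5 enriched members (21.4% of all genes) and 2 depleted ones (17.1%), and neurons had 7 enriched (14.6%) and 2 depleted (14.1%). With library size alone the depleted members were 5 in liver bud progenitors, where 4850 of 21951 genes were depleted. They were 0 in neurons, where 2356 of 22093 genes were. In mESC, 6 were enriched (25.8%) and 1 was depleted (20.6%), but scaling by library size alone turned this into 3 enriched and 7 depleted. Of all 15881 genes, 2591 were enriched and 6609 depleted under that scaling. The median log2 change of the members was 0.58 for HEK293T (all genes -0.01), 0.25 for liver bud progenitors (all genes -0.09), 0.53 for neurons (all genes 0.19) and 0.19 for mESC (all genes -0.11). Calls in either direction made up 46.4% of genes in mESC.

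AGO3, AGO4, TNRC6A, TNRC6B and DICER1 were called enriched in all 3 human cell types, as were 8.44% of the 21461 genes tested in all of them. DROSHA and DGCR8 were called depleted in all 3, as were 5.77% of genes.

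**Figure D1:**
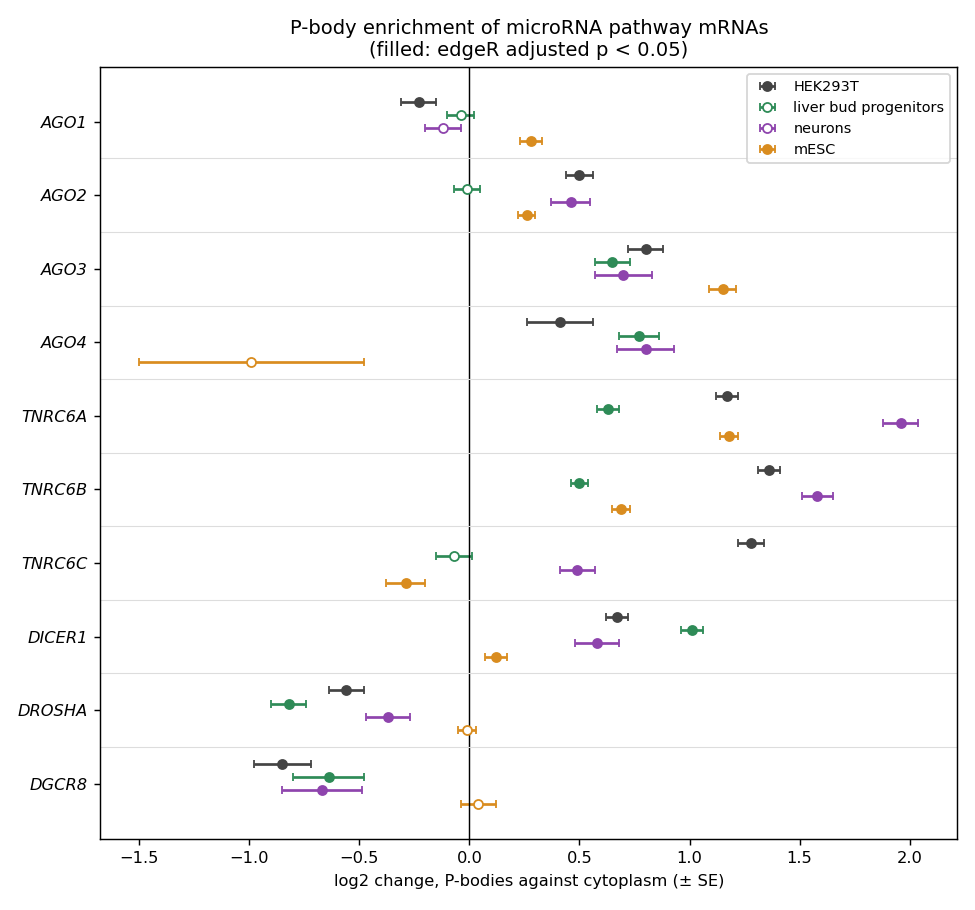
Log2 change of each member between P-bodies and cytoplasm (x axis, with SE) in the 4 cell types (colours); filled points passed an adjusted p of 0.05 in edgeR. TNRC6A and TNRC6B lie to the right of 0 in all 4 cell types, and DROSHA and DGCR8 lie to the left in HEK293T, liver bud progenitors and neurons but near 0 in mESC.

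TNRC6A, a scaffold that links Argonaute to the deadenylation machinery, was the member with the largest change in neurons. Its P-body libraries held 899 and 938 normalised CPM and its cytoplasm libraries 239 and 234. The fractions were far apart, and the log2 change was 1.96 ± 0.08 (SE), with an edgeR adjusted p = 4.22e-09, above that of 80.4% of all genes. HEK293T P-bodies had 1117 and 1082 normalised CPM against 484 and 495 in cytoplasm, a log2 change of 1.17 ± 0.05. For liver bud progenitors the values were 759 and 768 against 496 and 493, a smaller log2 change of 0.63 ± 0.05. Mouse Tnrc6a stood at 1066 and 1043 normalised CPM in mESC P-bodies and 461 and 468 in cytoplasm, changing by 1.18 ± 0.04 on the log2 scale (edgeR adjusted p = 2.15e-18). No P-body library overlapped a cytoplasm library for this gene in any cell type.

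TNRC6B, its paralogue, was enriched in all 4 cell types too. In neurons it reached 2295 and 2261 normalised CPM in P-bodies against 748 and 774 in cytoplasm, a log2 change of 1.58 ± 0.07. HEK293T gave 1339 and 1297 against 503 and 526, a change of 1.36 ± 0.05 (edgeR adjusted p = 6.61e-32). The fractions were again separate, but less so in liver bud progenitors, with 1572 and 1629 against 1103 and 1156 and a log2 change of 0.50 ± 0.04. In mESC, Tnrc6b held 521 and 527 normalised CPM in P-bodies and 327 and 320.0 in cytoplasm, a change of 0.69 ± 0.04.

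TNRC6C did not follow its paralogues in every cell type. In HEK293T its P-body libraries held 339 and 331 normalised CPM and its cytoplasm libraries 134 and 141, a log2 change of 1.28 ± 0.06 (edgeR adjusted p = 1.12e-26). Neurons gave 592 and 602 against 431 and 418, a change of 0.49 ± 0.08. In liver bud progenitors the libraries overlapped, at 114 and 138 in P-bodies and 129 and 136 in cytoplasm (log2 change -0.07 ± 0.08, edgeR adjusted p = 0.541). With library size alone the fractions did not overlap there, and TNRC6C was called depleted. Mouse Tnrc6c was the only member called depleted in mESC, at 55.3 and 66.7 normalised CPM in P-bodies and 79.1 and 70.0 in cytoplasm (log2 change -0.29 ± 0.09, edgeR adjusted p = 0.00882). That call was lost with DESeq2 and when either replicate 1 library was left out, where the adjusted p reached 0.211.

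**Figure D2:**
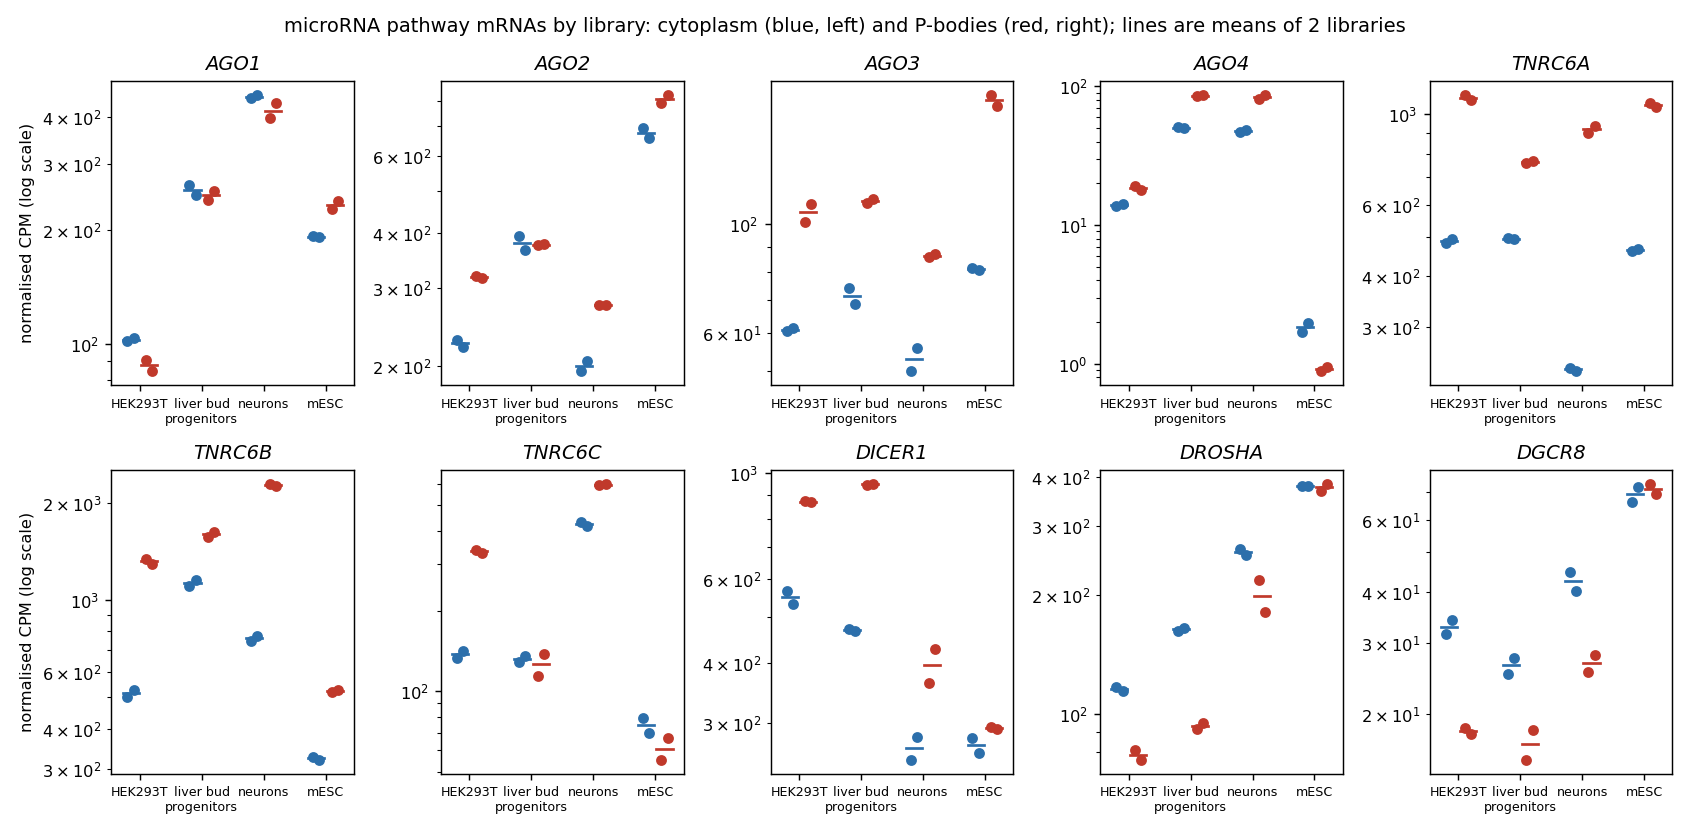
Normalised CPM (log scale) of each member in every library, with cytoplasm in blue and P-bodies in red; lines are the means of the 2 libraries. P-body points lie above cytoplasm points for TNRC6A, TNRC6B and AGO3 in all 4 cell types, and below them for DROSHA and DGCR8 in the 3 human cell types.

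DICER1, the nuclease that cuts precursor hairpins, was enriched in all 3 human cell types. Liver bud progenitor P-bodies held 943 and 951 normalised CPM against 471 and 467 in cytoplasm, its largest log2 change (1.01 ± 0.05, edgeR adjusted p = 3.65e-27). HEK293T gave 874 and 868 against 567 and 531, a change of 0.67 ± 0.05. Neuron libraries varied more but stayed apart, at 364 and 428 against 251 and 279.9 (change 0.58 ± 0.10). For mESC the fractions were close, with 294 and 291 normalised CPM in P-bodies and 279 and 259 in cytoplasm. The log2 change there was 0.12 ± 0.05 (edgeR adjusted p = 0.0379), its call was lost with DESeq2, RLE factors or filterByExpr or in 2 of 4 fits without a library, and it became -0.28 with library size alone.

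DROSHA, which starts processing in the nucleus, moved the other way. In liver bud progenitors its P-body libraries held 91.4 and 94.5 normalised CPM and its cytoplasm libraries 162 and 165 (log2 change -0.82 ± 0.08, edgeR adjusted p = 7.08e-15). HEK293T showed the same direction, with 80.6 and 76.3 against 117 and 114 and a change of -0.56 ± 0.08. Neuron P-bodies had 218 and 181 against 262 and 253, a change of -0.37 ± 0.10 that did not pass in 2 of 4 fits without a library, with library size alone or with filterByExpr. In mESC the libraries of both fractions overlapped, at 369 and 384 in P-bodies and 379 and 378 in cytoplasm, with a log2 change of -0.01 ± 0.04 (edgeR adjusted p = 0.879).

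DGCR8, the Microprocessor's RNA-binding subunit, was read with 138 to 472 counts per human library. HEK293T P-bodies held 18.5 and 17.9 normalised CPM against 31.4 and 34.1 in cytoplasm (log2 change -0.85 ± 0.13, edgeR adjusted p = 1.07e-07). In liver bud progenitors the values were 15.5 and 18.3 against 25.2 and 27.6, a change of -0.64 ± 0.16. Neurons had 25.4 and 28.0 against 44.6 and 40.2, a change of -0.67 ± 0.18 that did not pass in 2 of 4 fits without a library or with library size alone. The fractions did not overlap in these 3 cell types, whereas in mESC they did, at 73.6 and 69.2 and 66.3 and 72.1 (log2 change 0.04 ± 0.08). With library size alone, both mESC Microprocessor genes were called depleted, Drosha at -0.41 and Dgcr8 at -0.36.

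The ratio of DICER1 to DROSHA within a library does not depend on library scaling. Per kilobase of transcript it was 5.65 and 5.94 in HEK293T P-bodies and 2.54 and 2.43 in cytoplasm. Liver bud progenitors had ratios of 5.38 and 5.25 in P-bodies and 1.52 and 1.47 in cytoplasm. In neurons these were 0.87 and 1.24 against 0.50 and 0.578, and in mESC 0.37 and 0.352 against 0.341 and 0.318. P-body ratios were thus the higher ones in each cell type, by the smallest margin in mESC. With 2 libraries against 2, an exact permutation test cannot go below p = 0.333, and these ratios are given without a test.

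AGO1, which binds guides but is not the main slicer, changed little. HEK293T P-bodies held 90.6 and 84.4 normalised CPM against 101 and 104 in cytoplasm, a small depletion (log2 change -0.23 ± 0.08, edgeR adjusted p = 0.0104) whose call was lost with DESeq2, RLE factors or all human libraries in one fit, or in 2 of 4 fits without a library. In liver bud progenitors the libraries overlapped, with 241 and 255 against 263 and 248 (change -0.04 ± 0.06). With library size alone the fractions were apart there, and AGO1 was called depleted. Neurons had 397 and 435 against 448 and 458 (change -0.12 ± 0.08, edgeR adjusted p = 0.292). Mouse Ago1 stood higher in P-bodies, at 228 and 239.5 against 193 and 191 (change 0.28 ± 0.05), but at -0.12 with library size alone.

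AGO2, the Argonaute that can cleave its target, was enriched in HEK293T and neurons. HEK293T P-bodies had 321 and 317 normalised CPM against 229 and 221 in cytoplasm (log2 change 0.50 ± 0.06, edgeR adjusted p = 5.68e-11). Neurons gave 275 and 275 against 195 and 206, a change of 0.46 ± 0.09. In liver bud progenitors the fractions overlapped, with 377 and 378 in P-bodies and 394 and 367 in cytoplasm (change -0.01 ± 0.06, edgeR adjusted p = 0.904). With library size alone they did not overlap there, and AGO2 was called depleted. Ago2 in mESC was at 789 and 824 against 693 and 659, a change of 0.26 ± 0.04 with TMM and -0.15 with library size alone, each past the threshold.

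AGO3, whose gene lies beside AGO1 and AGO4 on chromosome 1, was enriched in all 4 cell types. The largest change was that of mouse Ago3, with 184 and 175 normalised CPM in mESC P-bodies against 81.2 and 80.5 in cytoplasm (log2 change 1.15 ± 0.06, edgeR adjusted p = 2.96e-14). HEK293T had 101 and 110.1 against 60.3 and 61.2 (change 0.80 ± 0.08). The fractions stayed apart in liver bud progenitors, at 111 and 113 against 74.1 and 68.6 (change 0.65 ± 0.08), and in neurons, at 85.5 and 87.0 against 50.05 and 55.89 (change 0.70 ± 0.13).

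AGO4 was the scarcest Argonaute per kilobase in HEK293T and mESC. Its P-body libraries held 84.7 and 86.8 normalised CPM in liver bud progenitors against 50.7 and 49.7 in cytoplasm (log2 change 0.77 ± 0.09), and 80.4 and 86.0 in neurons against 46.8 and 48.7 (change 0.80 ± 0.13). In HEK293T the values were 19.3 and 18.0 and 13.8 and 14.1 (change 0.41 ± 0.15, edgeR adjusted p = 0.0226), and this call was lost with library size alone and in 1 of 4 fits without a library. Mouse Ago4 had 9 to 19 counts per library and gave 0.885 and 0.949 normalised CPM in P-bodies and 1.70 and 1.97 in cytoplasm, a difference that did not pass (log2 change -0.99 ± 0.51, edgeR adjusted p = 0.115). It passed with library size alone and with filterByExpr, so at this low count the call changed with the setting.

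Shares within a family, from counts per kilobase of transcript, are also free of library scaling. They rest on 1 annotated length per gene (13712 bases for AGO1, 7227 for mouse Ago1), and the isoforms in use were not measured. AGO1 made up 26.3% and 27.2% of Argonaute reads per kilobase in HEK293T cytoplasm and 18.2% and 17.1% in P-bodies. In neurons it was the leading Argonaute, with 59.4% and 58.6% in cytoplasm and 45.8% and 47.5% in P-bodies, while AGO2 led in the other cell types. The AGO1 share was lower in P-bodies in each cell type, down to a narrow gap in mESC of 32.4% and 33.2% in cytoplasm against 31.4% and 31.8%. AGO3 did the reverse, from 6.32% and 6.48% in mESC cytoplasm to 11.7% and 10.8% in P-bodies and from 4.63% and 4.99% to 6.88% and 6.63% in neurons. Among the GW182 genes, TNRC6C held 37.5% and 36.5% of family reads per kilobase in neuron cytoplasm and 19.8% and 19.8% in P-bodies. Its share in HEK293T was nearly the same in both fractions, at 13.2% and 13.5% and 13.7% and 13.8%. Tnrc6a made up most of the family in mESC, at 66.9% and 68.4% in cytoplasm and 78.2% and 77.1% in P-bodies.

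**Figure D3:**
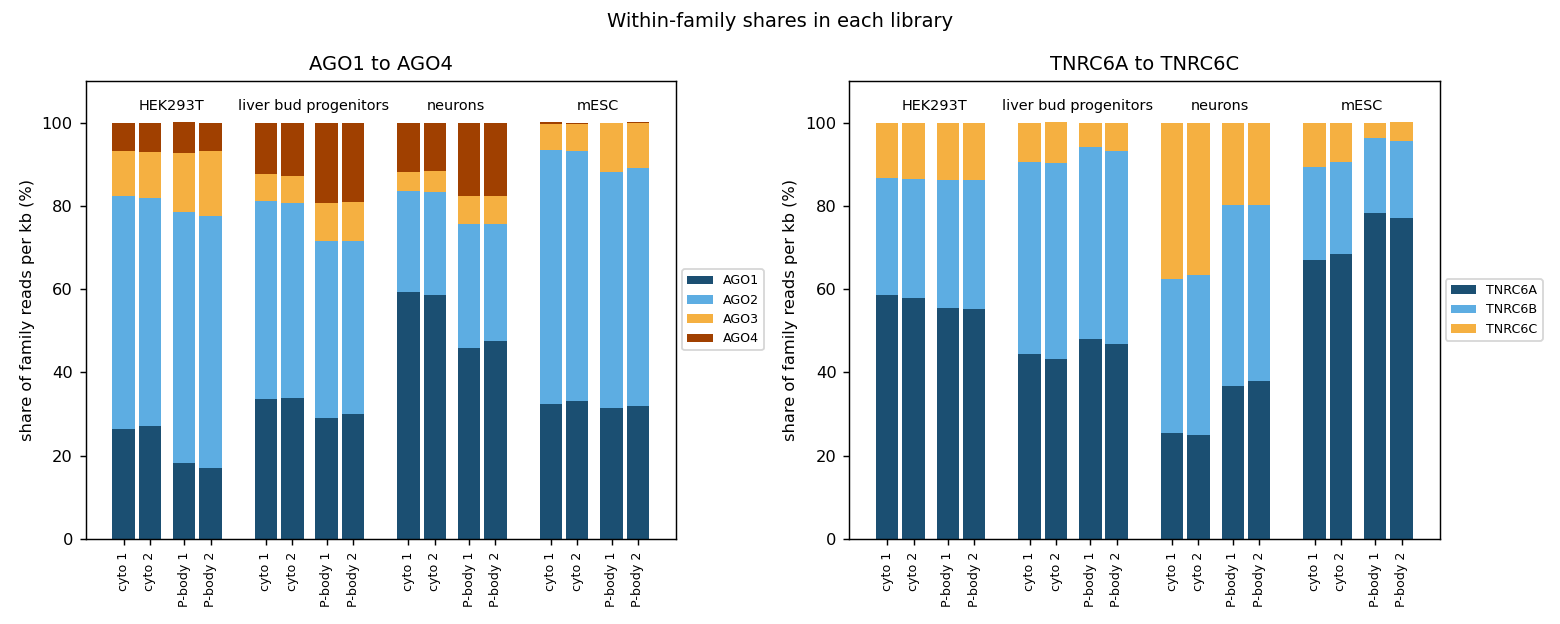
Share (%) of each Argonaute (left) and each GW182 gene (right) in its family's counts per kilobase of transcript, as stacked bars for every library. AGO1 takes up less of the P-body bars than of the cytoplasm bars in each cell type, and TNRC6C falls from about the level of TNRC6B in neuron cytoplasm to 19.8% in neuron P-bodies.

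Levels between genes were compared per kilobase of annotated transcript, with the same limit on isoforms. In HEK293T cytoplasm TNRC6A (57.6 ± 0.88 normalised CPM per kilobase, SD, n = 2) and DICER1 (52.9 ± 2.4) stood highest and AGO4 (1.92 ± 0.030) lowest. AGO1 and DGCR8 were neighbours there that did not differ beyond their spread, at 7.47 ± 0.12 and 7.27 ± 0.43. In liver bud progenitor cytoplasm the order ran from TNRC6B (61.8 ± 2.0) over TNRC6A and DICER1 to DGCR8 and AGO3 (3.63 ± 0.20). In neuron cytoplasm DROSHA was the highest member (47.5 ± 1.2), followed by TNRC6B (41.6 ± 1.0) and TNRC6C (40.8 ± 0.85), which overlapped. In mESC cytoplasm Drosha (82.9 ± 0.22) was again first and Ago4 (0.281 ± 0.029) last, while Dicer1 and Ago1 overlapped. The P-body order began with TNRC6A in HEK293T and mESC, with DICER1 in liver bud progenitors and with TNRC6B in neurons, where it reached 125 ± 1.3 normalised CPM per kilobase.

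Liver bud progenitors and neurons share a parental line and an RNA label, and their P-body enrichment was compared by an interaction term over the 8 libraries. All 3 GW182 genes were more enriched in neurons. The difference was 1.32 ± 0.09 on the log2 scale for TNRC6A (edgeR adjusted p = 1.34e-07), 1.07 ± 0.08 for TNRC6B and 0.56 ± 0.12 for TNRC6C (edgeR adjusted p = 0.0056), the last lost without neuron cytoplasm replicate 2. AGO2 differed by 0.46 ± 0.10 (edgeR adjusted p = 0.00505), a call lost in 1 of 8 fits without a library, whereas AGO1, AGO3 and AGO4 differed by -0.09 ± 0.11, 0.05 ± 0.15 and 0.02 ± 0.15 and did not pass. DICER1 was less enriched in neurons, with a difference of -0.44 ± 0.11 (edgeR adjusted p = 0.0114), and this call was lost with filterByExpr (-0.30), with library size alone (-0.08) and in 2 of 8 fits without a library. DROSHA was less depleted in neurons, with a difference of 0.44 ± 0.14 (edgeR adjusted p = 0.0376), a call that was lost in 7 of 8 fits without a library. In all, 5 members passed as higher in neurons, where 9.21% of all genes did, and 1 as lower, where 8.5% did (17.7% in either direction). The median difference was 0.25 for the members and 0.23 for all genes.

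The cytoplasmic levels of the members differed too, as tested in the same fit. TNRC6C stood at 444 and 426 normalised CPM in neuron cytoplasm and 126 and 132 in liver bud progenitor cytoplasm (log2 difference 1.76 ± 0.09, edgeR adjusted p = 1.55e-10). AGO1 followed, with 462 and 466 against 256 and 239.7 (difference 0.91 ± 0.07). DROSHA and DGCR8 were higher in neurons by 0.73 ± 0.10 and 0.76 ± 0.17 on the log2 scale. TNRC6A was lower there, at 246 and 238 against 482 and 477 (difference -0.99 ± 0.06), and so was AGO2, at 201 and 209 against 384 and 355 (difference -0.85 ± 0.07). TNRC6B, DICER1 and AGO3 were lower too, with differences of -0.49 ± 0.06, -0.74 ± 0.08 and -0.35 ± 0.11, and AGO4 did not pass (0.01 ± 0.11). The AGO3 call was lost with DESeq2, without ribosomal RNA genes and in 3 fits without a library. So 4 members passed as higher in neurons (19.2% of all genes) and 5 as lower (23.7%, or 42.9% in either direction). In such bulk cultures a change in the mix of cells and a change within cells cannot be told apart. TNRC6A and TNRC6B were thus lower in the neuron cytoplasm and more enriched in its P-bodies, and both comparisons use the same cytoplasm libraries.

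**Figure D4:**
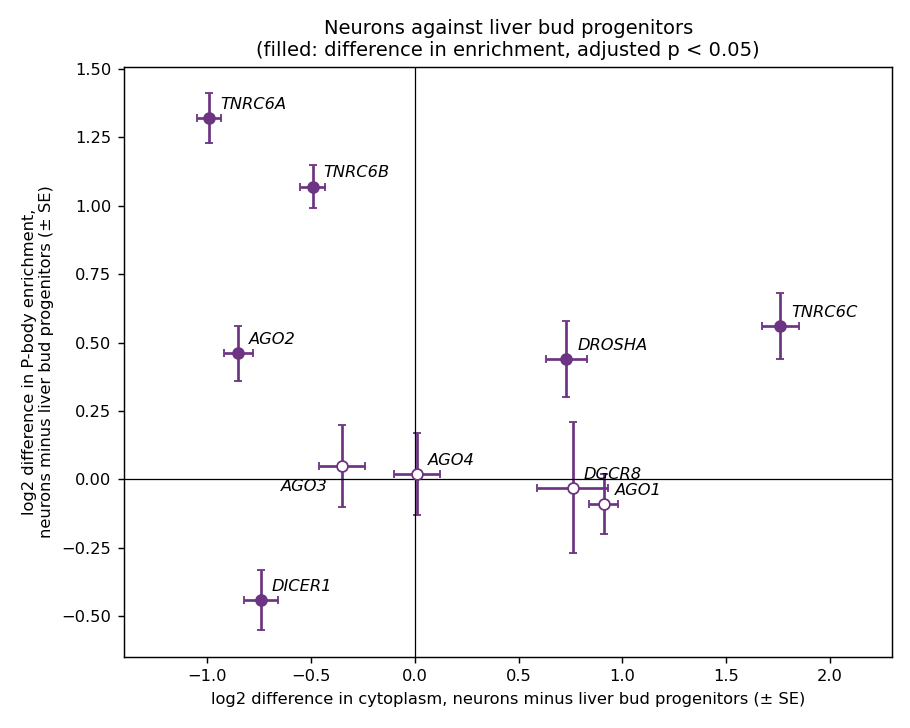
Each member's difference between neurons and liver bud progenitors, in cytoplasm (x axis, log2 with SE) and in P-body enrichment (y axis, log2 with SE); filled points passed an adjusted p of 0.05 for the difference in enrichment. TNRC6A and TNRC6B lie highest, at 1.32 and 1.07, and DICER1 is the filled point below 0. Both axes share the cytoplasm libraries.

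Beyond the 10 members, 26 other genes of the pathway were listed by role. Of these, 9 were enriched and 10 depleted in HEK293T (19.3% and 22.8% of all genes), 13 and 10 in liver bud progenitors (21.4% and 17.1%), and 9 and 7 in neurons (14.6% and 14.1%). In mESC 9 were enriched and 11 depleted (25.8% and 20.6%), and library size alone gave 3 and 19 (2591 and 6609 of all 15881 genes). Their median change was -0.06, 0.22, -0.08 and -0.18 on the log2 scale in the same order.

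Of the 5 nuclear processing and export genes, 4 were depleted in HEK293T, neurons and mESC and 3 in liver bud progenitors, with medians of -0.72, -0.76, -0.30 and -0.60 on the log2 scale. The share of depleted genes among all genes was 22.8%, 14.1%, 20.6% and 17.1% in the same order. SRRT, which hands capped primary transcripts to the Microprocessor, had log2 changes of -0.57 (HEK293T), -1.20 (liver bud progenitors), -1.21 (neurons) and -0.42 (mESC). XPO5, the exporter of precursor hairpins, changed by -1.01, -0.60, -0.76 and -0.24. The paired helicases went opposite ways in all 4 cell types: DDX17 was depleted (-0.72, -1.03, -0.93 and -0.30) and DDX5 was enriched (0.23, 0.56, 0.73 and 0.51), the latter not called in HEK293T or mESC with library size alone. RAN, the GTPase that drives export, was depleted in HEK293T at 154 and 166 normalised CPM in P-bodies against 414 and 402 in cytoplasm, and enriched in liver bud progenitors at 167 and 164 against 108 and 105.

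Of the 7 genes that tail, trim or destroy microRNAs, 4 were enriched and 2 depleted in HEK293T and mESC, and 5 and 2 in liver bud progenitors and neurons. Among all genes the enriched and depleted shares were 19.3% and 22.8% in HEK293T and 25.8% and 20.6% in mESC. They were 21.4% and 17.1% in liver bud progenitors and 14.6% and 14.1% in neurons. The terminal uridyltransferases TUT4 and TUT7 and the polymerase TENT2, which add nucleotides to RNA ends, were enriched in all 4 cell types, TUT7 in mESC not with library size alone. TUT4 had the larger changes, with 1454 and 1372 normalised CPM in neuron P-bodies against 351 and 352 in cytoplasm (log2 change 2.01 ± 0.08, edgeR adjusted p = 3.08e-09), 1.54 in HEK293T, 0.68 in liver bud progenitors and 1.31 in mESC. LIN28B, which blocks let-7 maturation, was enriched in all 4 as well, by 1.02, 1.57, 3.32 and 1.27. In neurons, where it was scarce, LIN28B had 93.0 and 111 normalised CPM in P-bodies against 11.1 and 9.30 in cytoplasm. The nuclease DIS3L2, which degrades uridylated precursors, and ZSWIM8, the ligase adaptor of target-directed microRNA decay, were depleted in all 4, although DIS3L2 kept its call with DESeq2 only in neurons and lost it in HEK293T (-0.57) under 5 settings. ZSWIM8 changed by -1.15, -1.41, -1.48 and -0.85.

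Among Dicer partners, ADAR, an editor of double-stranded RNA, was enriched in HEK293T at 738 and 658 normalised CPM against 323 and 346 (log2 change 1.06 ± 0.06), depleted in liver bud progenitors (-0.33) and, except with DESeq2, in mESC (-0.30), and not called in neurons (-0.08). Of the loading chaperones, HSP90AA1 was called enriched in all 4 cell types by small changes (0.34, 0.12, 0.25 and 0.14), with -0.06 in liver bud progenitors and -0.27 in mESC under library size alone. HSPA8 was depleted in HEK293T (-1.03) and, except with library size alone, in neurons (-0.34) and enriched in liver bud progenitors (0.66), and its enrichment in mESC (0.32) became -0.09 with library size alone. MOV10, a helicase partner of Argonaute, was depleted in HEK293T (-0.94), liver bud progenitors (-1.14) and mESC (-0.35). TRIM71 was enriched in HEK293T (0.60), liver bud progenitors (0.34) and neurons (1.45) and depleted in mESC (-0.28). IPO8, an importin that binds Argonaute, was enriched in liver bud progenitors (0.31), neurons (0.77) and mESC (0.24), but with DESeq2 in neurons alone, and its mESC value was -0.17 with library size alone.

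**Figure D5:**
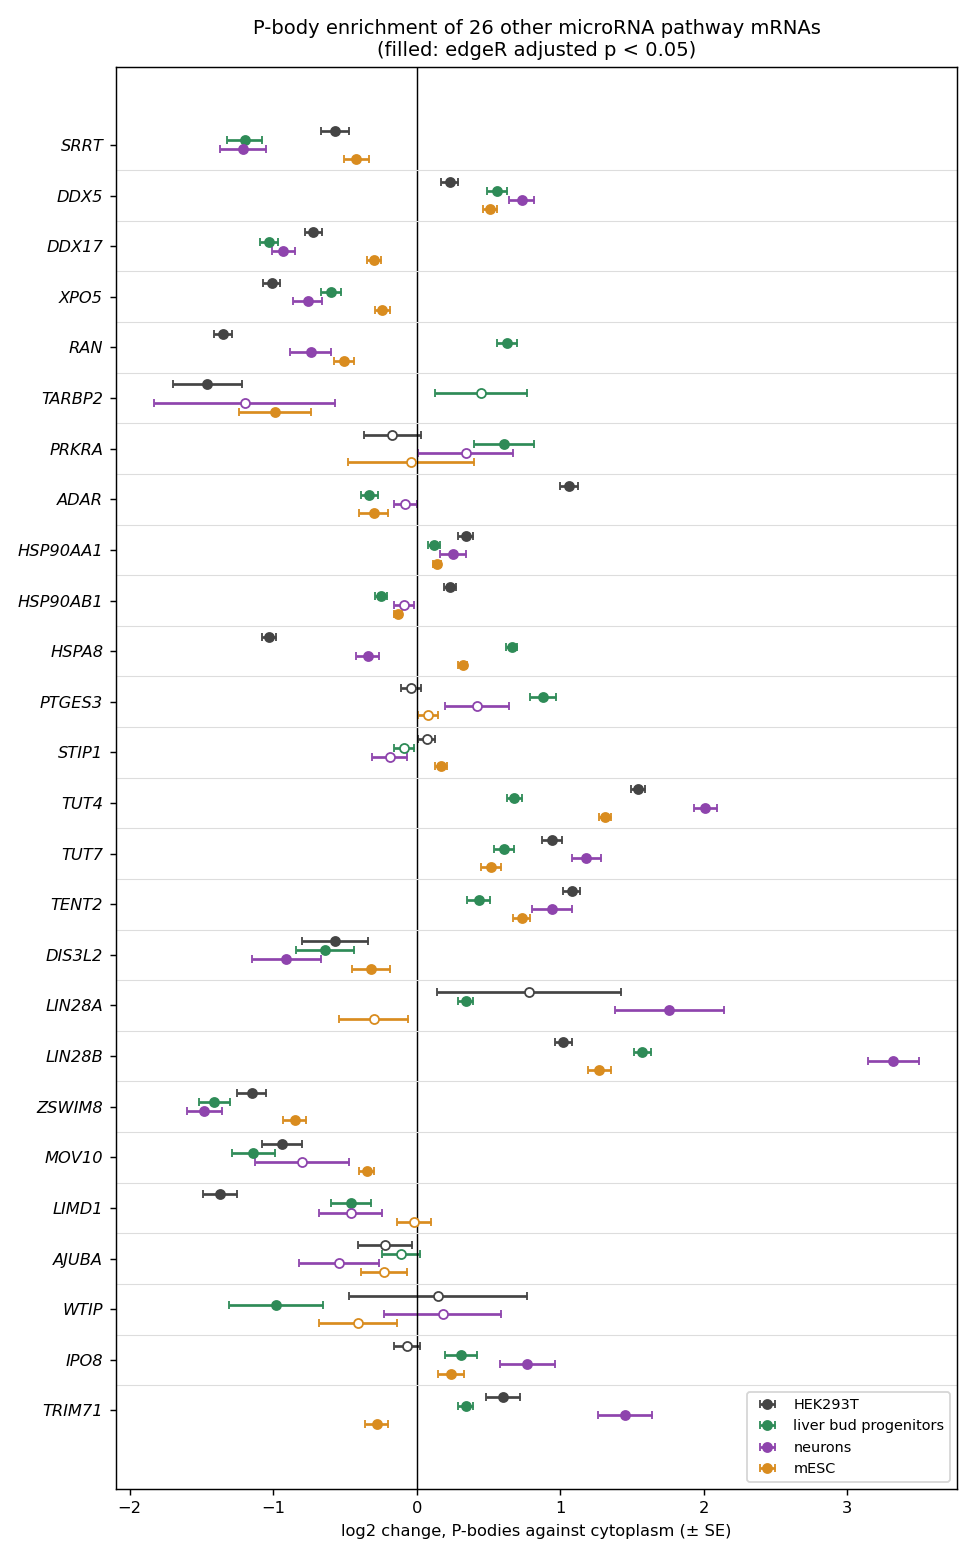
Log2 change between P-bodies and cytoplasm (x axis, with SE) of the 26 other pathway genes in the 4 cell types (colours); filled points passed an adjusted p of 0.05 in edgeR. TUT4, TUT7, TENT2 and LIN28B lie to the right of 0 in all 4 cell types, and ZSWIM8, DDX17 and XPO5 to the left.

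Between neurons and liver bud progenitors, 6 of the 26 genes were more enriched in neurons and 2 less (9.21% and 8.5% of all genes). The 6 were TUT4 (1.33 ± 0.09), TUT7 (0.56 ± 0.12), TENT2 (0.50 ± 0.16), LIN28A (1.41 ± 0.17), LIN28B (1.74 ± 0.16) and TRIM71 (1.1), the last a ubiquitin ligase of the LIN28 pathway. RAN (-1.37 ± 0.14) and HSPA8 (-1.01 ± 0.10) were the 2 others. LIN28A, LIN28B and TRIM71 were also far lower in neuron cytoplasm, where LIN28A held 3.41 and 3.46 normalised CPM against 596 and 601 in liver bud progenitors. The summed pluripotency markers given above, of which LIN28A is one, moved the same way, and their part in these 3 differences was not tested. Markers of neural progenitors summed to 3490 to 3680 CPM in neuron P-bodies and 1510 to 1630 CPM in neuron cytoplasm, and their part was not tested either.

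Host genes of microRNAs were measured as long transcripts only. There were 50 such symbols among the human genes and 5 among the mouse genes, and 13 to 19 per human cell type reached a mean of 1 CPM. Of the hosts at this level, 2 were enriched and 3 depleted of 13 in HEK293T, 2 and 5 of 13 in liver bud progenitors and 2 and 5 of 19 in neurons, where 42.0%, 38.5% and 28.7% of all genes were called in either direction. Those shares include genes under 1 CPM and so are not at a like level. With filterByExpr, which leaves out scarce genes, 9200 of 13691 genes were called in HEK293T. In liver bud progenitors it was 8411 of 14413 and in neurons 6316 of 15030. The remaining hosts averaged under 1 CPM, and 1 of them was called, MIR503HG in liver bud progenitors. MIR4697HG was called depleted in HEK293T (-1.18 ± 0.42, at most 46 counts per library), liver bud progenitors (-0.99 ± 0.27) and neurons (-0.82 ± 0.20). MIR570HG was enriched in liver bud progenitors (2.0 ± 0.29) and not called in neurons (-0.81 ± 0.32). In neurons MIR100HG and MIR99AHG, which hold let-7, miR-125b and the miR-100 family, were depleted, MIR100HG at 41.7 and 42.4 normalised CPM in P-bodies against 66.9 and 73.6 in cytoplasm (log2 change -0.74 ± 0.14) and MIR99AHG at 14.3 and 18.7 against 36.4 and 34.4 (change -1.10 ± 0.22). MIR4458HG, which also holds a let-7 seed, was enriched in HEK293T, at 11.7 and 11.8 normalised CPM against 5.62 and 4.85 (log2 change 1.17 ± 0.20, edgeR adjusted p = 1.08e-06). In neurons MIR4458HG was also called enriched (edgeR adjusted p = 0.012), with at most 28 counts per P-body library and at most 1 in cytoplasm, so no fold is given. MIRLET7BHG did not pass in neurons (edgeR adjusted p = 0.497), at 0.331 and 2.77 normalised CPM against 1.04 and 0.400. MIR124-2HG, host of a neuronal microRNA, was depleted in neurons (log2 change -1.82 ± 0.25, edgeR adjusted p = 9.39e-05). It had 57.9 and 28.6 normalised CPM against 173 and 130.2, with a wide gap between its P-body libraries. MIR9-3HG was lower in P-bodies with an adjusted p close to the threshold (-0.68, edgeR adjusted p = 0.0485), and the call was lost with DESeq2, RLE factors, library size alone and filterByExpr. MIR100HG, MIR99AHG, MIR124-2HG and MIR9-3HG had at most 10 counts per library in liver bud progenitor cytoplasm, where MIR100HG read 1.42 and 1.22 normalised CPM against 68.9 and 75.0 in neurons. MIR17HG, host of the miR-17 cluster, was depleted in HEK293T (-1.82) and liver bud progenitors (-1.96), at no more than 54 counts per library. MIR302CHG, host of the stem cell cluster miR-302, went the other way in HEK293T (1.09) and neurons (2.36), but its HEK293T P-body libraries, at 3.98 and 8.94 normalised CPM, were far apart, and the HEK293T call was lost without the second of them, the neuron call with DESeq2.

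In the annotation, the 3 neighbouring Argonautes lie on the plus strand of chromosome 1 (hg38, GENCODE 44), AGO4 from 35808016 to 35857890, AGO1 from 35869808 to 35930532 and AGO3 from 35930718 to 36072500. AGO2 is on chromosome 8 (140520156 to 140635633, minus strand). TNRC6A is on chromosome 16 (24610209 to 24827632), TNRC6B on chromosome 22 (40044817 to 40335808) and TNRC6C on chromosome 17 (77958703 to 78108822), all on the plus strand. DICER1 lies on chromosome 14 (95086228 to 95158010, minus), DROSHA on chromosome 5 (31400494 to 31532196, minus) and DGCR8 on chromosome 22 (20080221 to 20111877, plus). TNRC6A, TNRC6C, DICER1 and DGCR8 overlap a gene on the opposite strand (LINC01567, TMC6, DICER1-AS1 and TRMT2A), as do mouse Ago2 (Chrac1) and Dgcr8 (Trmt2a), and since no source used here says that counting used strand, reads of such pairs cannot be told apart.

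The members are long mRNAs. AGO3 has a 3′ UTR of 16755 bases, TNRC6B of 12567, AGO2 of 11888 and AGO1 of 10925, each longer than in at least 99.2% of the 17338 genes with a MANE transcript, whose median was 1207.5. DROSHA, with 938 bases, and DGCR8, with 1764, have the shortest 3′ UTRs of the 10. AGO1 and AGO3, both among the longest, had log2 changes of -0.23 and 0.80 in HEK293T. The AGO1 call was lost under several settings, as stated above, and the part of length was not tested. Base composition moved with enrichment across all genes, and its part in the members' changes was not tested. Among genes at a mean of 1 CPM or more, those under 40% GC had median log2 changes of 0.55 (HEK293T), 0.86 (liver bud progenitors), 0.79 (neurons) and 1.15 (mESC), and those at 55% or more had -0.94, -0.54, -0.76 and -0.38. AGO3 (38.87% GC) differed from the median of its GC range by 0.25, -0.21 and -0.09 in the human cell types, and DICER1 (40.16%) by 0.31, 0.49 and 0.19. TNRC6A (46.27%) lay 1.15, 0.52 and 1.94 above the median of its range, and TNRC6C (52.37%) lay 1.79, 0.20 and 0.88 above its own. TNRC6B (44.53%) was above that median in HEK293T and neurons, by 1.00 and 1.19, and level with it in liver bud progenitors, at -0.02. DROSHA (45.94%) lay below the median of its range, at -0.58, -0.93 and -0.39 from it.

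For 4 members the genes with the most similar pattern were sought among 4322 genes whose mean level reached 20 CPM in each of the 3 human cell types, by the mean absolute difference of the log2 changes. TNRC6B was closest to ZNF608 (0.0276) and EPB41L2 (0.0545), and DICER1 to PTPN11 (0.0206) and EIF4B (0.0234). AGO2 was closest to ZNF417 (0.0363) and PCYT1A (0.0491), and DROSHA to AMBRA1 (0.0439) and OGT (0.0486). These are distances over 3 values each and carry no test.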

How the data were processed

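RNA of sorted P-bodies and of presorting cytoplasm was measured in 16 libraries. The authors deposited integer counts of reads for each gene symbol, against hg38 or mm10, after removing genes under 10 reads. Their methods name the nf-core RNA-seq pipeline with salmon for snapTotal-seq and hisat with featureCounts for Smart-seq, without tying a pipeline to the polyA columns. They also deposited DESeq2 fold changes and p-values, not used here. Groups came from the labels. Members and lists were chosen with earlier results of these data known. The named genes are the 10 members, 26 listed pathway genes, symbols of the form MIR...HG, and the 2 nearest patterns of AGO2, TNRC6B, DICER1 and DROSHA.

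Counts were compared with edgeR 4.0.16 in R 4.3.3 (quasi-likelihood, TMM, two-sided, Benjamini-Hochberg over all genes with a count, no covariate) on the 4 libraries of a cell type, or the 8 of neurons and liver bud progenitors. The scripts were tested on simulated data. The alternatives were DESeq2 1.42.0, RLE factors, library size only, filterByExpr, no ribosomal RNA genes, a replicate block, all human libraries in one fit (not for mESC) and leaving out each library. Lengths, GC and 3′ UTRs came from GENCODE 44 MANE Select and M21 APPRIS principal transcripts, for 17338 and 14659 genes. Totals of 6368953 to 17972284 counts set the floor of 3 counts. Replicate counts differed by more than sampling noise in all 8 groups (chi-square per gene 2.15 to 24.8). The 24.8 was that of neuron P-bodies, and the next highest value was 6.69, in neuron cytoplasm.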

Additional observations from a re-analysis of the deposited data

Results flagged for a closer look

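P-body enrichment differed between neurons and liver bud progenitors, by the interaction term of edgeR at an adjusted p under 0.05, for 6 members and 8 other pathway genes. Of all 22268 genes tested, 17.7% passed. The log2 differences, neurons minus liver bud progenitors, were 1.32 for TNRC6A, 1.07 for TNRC6B, 0.56 for TNRC6C, 0.46 for AGO2, 0.44 for DROSHA and -0.44 for DICER1. For the other genes they were 1.74 for LIN28B, 1.41 for LIN28A, 1.33 for TUT4, 1.1 for TRIM71, 0.56 for TUT7, 0.50 for TENT2, -1.01 for HSPA8 and -1.37 for RAN. The median over all genes was 0.23. The calls of TNRC6C, AGO2, DROSHA and DICER1 did not hold under every setting, as stated above.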

How the results depend on the processing

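Of the values of single members under the alternatives, 652 kept their direction and side of the threshold, 40 lost and 7 gained the call, and 31 changed sign. For the other pathway genes these numbers were 1218, 89, 6 and 7, and for the host genes 204 kept and 34 lost the call. The cause of these changes was not tested. Depth limited mouse Ago4 and most host genes.

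Library size alone gave 5 depleted members in liver bud progenitors (2 with TMM), 0 in neurons (2), and in mESC 3 enriched members (6) and 7 depleted (1), with 3 enriched (9) and 19 depleted (11) pathway genes. For the neuron and liver bud comparison it gave 0 members less enriched in neurons (1), 12 pathway genes more enriched (6) and 3 pathway genes higher in neuron cytoplasm (6). It turned the sign of AGO1 (0.04) and ADAR (0.09) in neurons, of HSP90AA1 (-0.06) in liver bud progenitors, and in mESC of Ago1 (-0.12), Ago2 (-0.15), Dicer1 (-0.28), Dgcr8 (-0.36), Hsp90aa1 (-0.27), Hspa8 (-0.09), Stip1 (-0.23) and Ipo8 (-0.17). It also turned the difference in enrichment of AGO1 (0.27) and DGCR8 (0.33) and the cytoplasmic difference of AGO4 (-0.25).

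With filterByExpr, 1 member was depleted in neurons, 2 in mESC and 0 less enriched in neurons than in liver bud progenitors, and the sign turned for ADAR in neurons (0.03), Dgcr8 (-0.04), the enrichment differences of AGO1 (0.06) and DGCR8 (0.11) and the cytoplasmic difference of AGO4 (-0.01). DESeq2 left 0 depleted members in mESC. One fit of all human libraries gave 14 depleted pathway genes in neurons (7) and enrichment differences of -0.03 for AGO3 and -0.06 for AGO4, the latter -0.02 without ribosomal RNA genes.

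Leaving out each library gave 0 to 2 depleted members and 5 to 11 depleted pathway genes in neurons, 0 to 1 depleted members in mESC, 3 to 5 members more and 0 to 1 less enriched in neurons than in liver bud progenitors, and 2 to 6 pathway genes less enriched. Values that crossed 0 were AGO2 (-0.11 to 0.04) and TNRC6C (-0.21 to 0.06) in liver bud progenitors, Drosha (-0.01 to 0.02) and Dgcr8 (-0.01 to 0.12) in mESC, the enrichment differences of AGO3 (-0.10 to 0.11), AGO4 (-0.15 to 0.05) and DGCR8 (-0.23 to 0.11), and the cytoplasmic difference of AGO4 (-0.01 to 0.10).

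Replicates share only a number, with correlations of same-numbered deviations of -0.112 (HEK293T), 0.063 (liver bud progenitors), 0.147 (neurons) and -0.0293 (mESC). With the replicate block 9138 genes were called in HEK293T (9207 without), 8481 in liver bud progenitors (8455), 6954 in neurons (6343), 7402 in mESC (7375), 4701 for the difference in enrichment (3942) and 9422 between cytoplasms (9542). The block ended no call of a named gene. The block kept 7, 5, 7 and 6 enriched and 3, 2, 2 and 1 depleted members in the 4 cell types, and 5 and 1 for the difference. In HEK293T a block with crossed numbers, chosen after seeing the data, called 9311 genes.

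Over all genes, library size alone turned 4708 higher and 3747 lower calls in liver bud progenitors into 3822 and 4850, 3220 and 3123 in neurons into 3839 and 2356, 4104 and 3271 in mESC into 2591 and 6609, and 2050 and 1892 for the difference in enrichment into 3520 and 940. DESeq2 called 1803 genes lower in mESC, and one fit of all human libraries 4936 lower in neurons. Without neuron cytoplasm replicate 1, 4001 genes were called in neurons, and without each library in turn 2419 to 6285 for the difference.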
